A study of Larimichthys crocea with 2 samples.

Results

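The genes described here code for the enzymes that move and release amino groups in muscle of a marine fish, the large yellow croaker (Larimichthys crocea). They are 10 of 22321 annotated genes. A gene belonged if its deposited protein name began with alanine aminotransferase, aspartate aminotransferase, glutamine synthetase, glutamate dehydrogenase or L-serine dehydratase. Of the 15 genes so named, 10 were chosen by their mean level over both libraries, the highest first, so the levels themselves are a description and no finding. The last one kept, a glutamine synthetase, had a mean of 1.73 RPKM (reads scaled to gene length and to library size), and the first one left out, alanine aminotransferase 1, had 1.30. The series holds 2 RNA sequencing libraries of muscle, 1 from untreated control fish and 1 from fish fasted for 21 days. The labels name no strain, age, sex or feeding regime, which muscle was taken, or how many fish went into a library.

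In vertebrate muscle, aminotransferases pass the amino group of an amino acid to a keto acid. Carbon skeletons can then be burned, and the nitrogen is passed on in alanine, glutamate or aspartate. Glutamate dehydrogenase frees or binds ammonia at glutamate, and glutamine synthetase ties a further ammonia to glutamate as glutamine. L-serine dehydratase turns serine into pyruvate and ammonia and is known in mammals chiefly as a liver enzyme of amino acid breakdown.

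The control library held 27519918 reads on listed genes and the fasted library 26593839, and the 20 most abundant genes took 59.1% and 43.9% of them. Neither group has a second library, so no test was possible and no value below has a replicate check. Intervals cover counting error only, and, since the reads carry no molecular identifiers, copies of 1 molecule may be counted more than once. The comparison took in the 11417 genes whose mean reached 1 RPKM, among them all 10 described here. The median gene was 1.40-fold higher in fasted muscle as deposited (log2 0.48), and ratios below are centred on it unless said otherwise. A gene was called higher or lower at a fixed size of 2-fold. On the centred scale 16.1% of genes were called higher and 16.6% lower (32.7% either way), and as deposited 29.7% and 8.88% (38.6% either way). Higher genes were thus 49.3% of those called on the centred scale and 77.0% as deposited. In whole tissue, fewer cells of a type and less RNA per cell cannot be told apart.

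Of the 10 genes, 3 were called higher in the fasted library, 1 was called lower and 6 lay within 2-fold, where 16.1% and 16.6% of all genes that entered were called higher and lower. The 3 were 1 gene each of alanine aminotransferase, glutamate dehydrogenase and glutamine synthetase, while the other genes of the same enzymes, and both aspartate aminotransferases, lay within 2-fold. L-serine dehydratase was the gene called lower, and it had no reads at all in the fasted library. The median centred log2 ratio of the 10 genes was -0.35, against 0 by construction for all genes that entered. The same 4 genes were called, in the same directions, with RPKM as deposited, where 29.7% of all genes were higher and 8.88% lower. These genes were chosen with such results known, so the counts are a description.

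**Figure D1:**
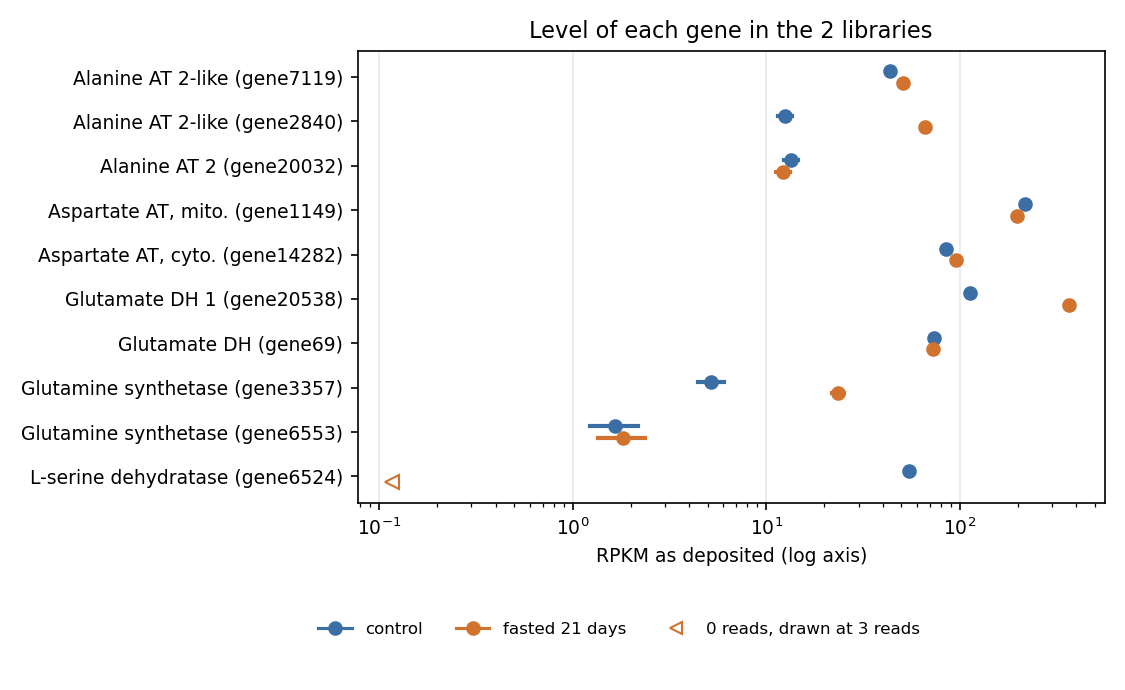
RPKM as deposited (log axis) of each of the 10 genes in the control library (blue) and the fasted library (orange). AT stands for aminotransferase and DH for dehydrogenase, bars are 95% exact Poisson intervals of the read count (counting error only), and the open triangle is a gene with 0 reads drawn at 3 reads. Alanine aminotransferase gene2840, glutamate dehydrogenase gene20538 and glutamine synthetase gene3357 sit well to the right in the fasted library, and L-serine dehydratase is at the floor there.

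Alanine aminotransferase joins alanine and pyruvate and is the step by which muscle nitrogen can be loaded onto alanine for export. Gene2840, named alanine aminotransferase 2-like, had 12.5 RPKM in control muscle and 66.3 RPKM in fasted muscle. It was the fasted library that was high, with 3057 reads against 597. The centred log2 ratio was 1.88, or 3.67-fold, with a 95% exact Clopper-Pearson interval of the read ratio from 1.80 to 2.05. Only 543 of the 11417 genes had a higher ratio. The gene lies on scaffold NW_011322478.1, bases 1361760 to 1377045, minus strand, and RefSeq's L_crocea_2.0 annotation now gives its locus the symbol gpt, the usual symbol of the first alanine aminotransferase.

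The second gene of that name, gene7119 (scaffold NW_011322605.1, bases 484156 to 492839, minus strand), was the more abundant one in the control library. Control muscle held 43.8 RPKM of it and fasted muscle 50.6 RPKM. On the centred log2 scale it lay at -0.28 (counting interval -0.37 to -0.18), and as deposited 0.21, so that its sign depended on the scaling. Gene20032, named alanine aminotransferase 2 and now gpt2 in RefSeq, stood at 13.4 and 12.2 RPKM in control and fasted muscle (scaffold NW_011323771.1, bases 270 to 15774, plus strand), or -0.61 as a centred log2 ratio (counting interval -0.78 to -0.45).

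The order of the 3 genes differed between the libraries. In the control library gene2840 and gene20032 had levels whose counting intervals overlapped (11.5 to 13.6 and 12.4 to 14.5 RPKM), and gene7119 was the highest. In the fasted library gene2840 was the highest, with a counting interval of 64.0 to 68.7 RPKM against 48.4 to 52.9 RPKM for gene7119. Gene2840 made up 17.8% of the RPKM summed over all 5 alanine aminotransferase genes in control and 50.6% in fasted muscle. The sum itself was 70.5 and 131 RPKM, a centred log2 ratio of 0.41, within 2-fold. Of the 2 alanine aminotransferase genes outside the 10, alanine aminotransferase 1 (gene15681) had 30 and 72 reads with a centred ratio of 0.43, and gene13517 had at most 0.0426 RPKM.

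The lists of transcript ends gave gene2840 more than 1 first exon. The annotation places a first exon of 35 bases at the far end of the gene, and this exon had an FPKM (fragments scaled to length and library size) of 0 in both libraries. Another first exon, with its inner edge at base 1372973 and its outer end at 1373094 in the control and 1373068 in the fasted list, had an FPKM of 8.17 in control and 48.4 in fasted muscle. The last exon stood at 9.96 and 56.8 FPKM, above the first exon in both libraries, so other starts are possible, and an FPKM of 0 for so short an exon does not show that it was not used. The events come from the same reads as the RPKM and are not an independent measurement.

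Glutamate dehydrogenase, a mitochondrial enzyme, interconverts glutamate with 2-oxoglutarate and ammonia. Gene20538, named glutamate dehydrogenase 1, had 113 RPKM in control and 369 RPKM in fasted muscle, with 5086 and 16077 reads. The fasted library was the higher one, and there this gene was the most abundant of the 10. Its centred log2 ratio was 1.22, or 2.33-fold (counting interval 1.18 to 1.27). This call is close to the 2-fold size: with only genes of at least 5 RPKM setting the centre, the ratio was 0.96 and no longer past it. The gene lies on scaffold NW_011323873.1, bases 135734 to 144102, minus strand.

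The other glutamate dehydrogenase, gene69 (glud1b in RefSeq, scaffold NW_011322423.1, bases 356181 to 370768, minus strand), had nearly the same level in both libraries, 73.2 and 72.8 RPKM. Centred, its log2 ratio was -0.49 (counting interval -0.56 to -0.42), and as deposited -0.01. Both genes summed to 186 and 442 RPKM, of which gene20538 held 60.6% in control and 83.5% in fasted muscle. The sum had a centred log2 ratio of 0.76, within 2-fold, and 1.25 as deposited.

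Gene20538 was also the only 1 of the 10 for which splicing events other than transcript ends were listed. In the fasted library a form that leaves out 4 exons together, 296 bases in all between bases 138993 and 140251, had an FPKM of 36.2, and the form that keeps them had 207. The shorter form was 14.9% of the 244 FPKM of both. The same FPKM, 36.2, was listed for a form of another exon that is 11 bases shorter and reaches base 136201 in place of 136212. No such event was listed in the control library, where the gene's first and last exons stood at 62.3 FPKM. The control had 5086 reads of this gene against 16077, and whether the shorter form would be assembled at the control depth was not tested.

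Glutamine synthetase captures ammonia on glutamate and makes glutamine, a main carrier of nitrogen out of muscle. Gene3357 had 5.21 RPKM in control and 23.5 RPKM in fasted muscle, with 160 and 698 reads. The fasted library was the higher one. The centred log2 ratio was 1.59, or 3.01-fold (counting interval of the read ratio 1.44 to 1.95). The gene lies on scaffold NW_011322495.1, bases 248171 to 250402, minus strand.

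A second glutamine synthetase, gene6553 (scaffold NW_011322588.1, bases 544057 to 545683, minus strand), stood at 1.65 and 1.81 RPKM, with 51 control and 54 fasted reads. Its centred log2 ratio was -0.38, and the counting interval, -0.93 to 0.23, held 0, so that no difference was detectable at this depth. The third gene of the name, gene15078, was listed at 0 in both libraries. The enzyme summed to 6.86 RPKM in control and 25.3 RPKM in fasted muscle (centred log2 ratio 1.33), and gene3357 held 75.9% and 92.9% of that sum. Glutamine synthetase was thus called higher also as a sum, which the summed alanine aminotransferases and the summed glutamate dehydrogenases were not on the centred scale.

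**Figure D2:**
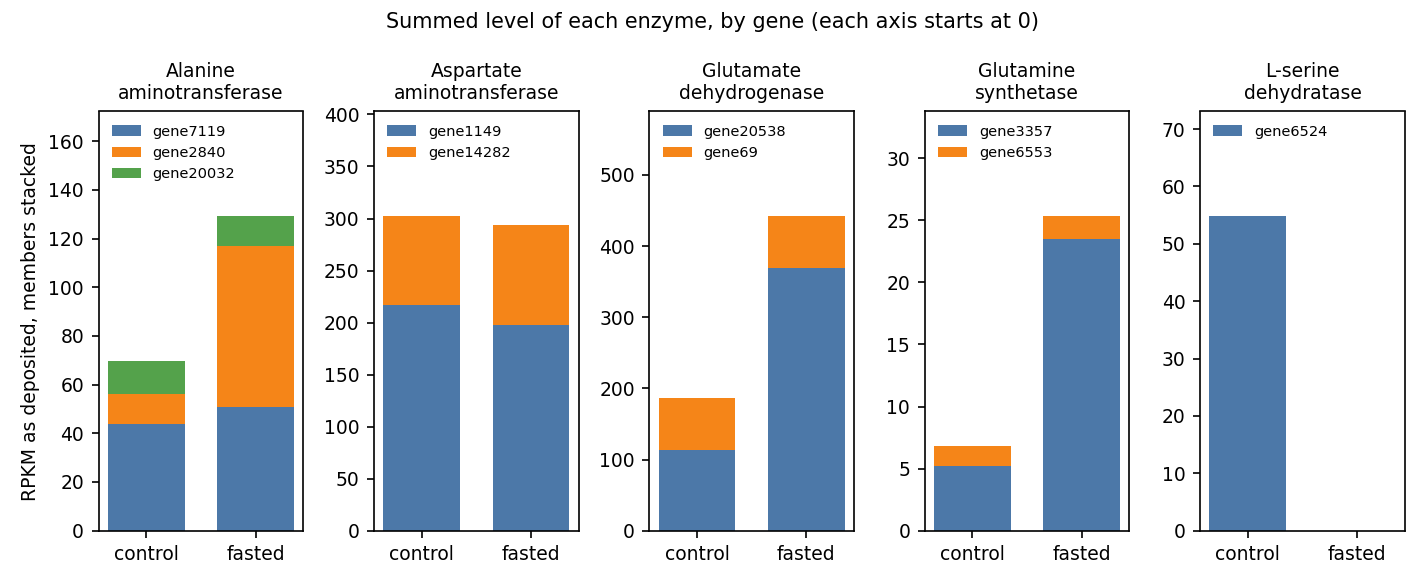
RPKM as deposited of each enzyme, stacked over those of the 10 genes that belong to it, for the control and the fasted library; each panel has its own axis, which starts at 0. The added height in the fasted library comes mainly from 1 gene each in the alanine aminotransferase, glutamate dehydrogenase and glutamine synthetase panels, while aspartate aminotransferase is 302 and 294 RPKM in total and L-serine dehydratase has no bar in the fasted library.

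Aspartate aminotransferase exchanges the amino group between glutamate and aspartate, and its cytoplasmic and mitochondrial forms work together in the malate-aspartate shuttle, which carries reducing equivalents into mitochondria. The mitochondrial gene, gene1149 (got2 in the event lists, scaffold NW_011322442.1, bases 87488 to 95098, plus strand), was the most abundant of the 10 in the control library. Its level was 217 RPKM in control and 198 RPKM in fasted muscle. The centred log2 ratio, -0.62 (counting interval -0.66 to -0.57), was inside 2-fold but past 1.5-fold, and as deposited it was -0.13.

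The cytoplasmic gene, gene14282 (scaffold NW_011323055.1, bases 165653 to 170950, plus strand), stood at 85.4 and 96.1 RPKM. Its centred log2 ratio was -0.31 (counting interval -0.39 to -0.24) and as deposited 0.17, so that its sign depended on the scaling. The mitochondrial gene held 71.7% of all aspartate aminotransferase RPKM in control and 67.2% in fasted muscle. The other 2 cytoplasmic genes had almost no reads: gene1391 had 6 in each library, and gene14856 had 0.0280 RPKM in control and 0 in fasted muscle.

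L-serine dehydratase was the only one of the 4 called genes that was lower in the fasted library. Gene6524 (sds in the event lists, scaffold NW_011322587.1, bases 113556 to 115601, minus strand) had 1466 reads and 54.8 RPKM in control muscle and 0 reads in fasted muscle. A floor of 3 reads, or 0.116 RPKM, was set in place of the 0. Against that floor the gene was 659.9-fold lower on the centred scale, which is a log2 ratio of -9.37. This is no lower bound, since the 95% exact interval of the read ratio reaches up to -9.07. With the pseudocount of 0.5 RPKM the log2 ratio was -7.27, and only 4 of 11417 genes had a lower one. In the control library 54.8 RPKM placed it between glutamate dehydrogenase gene69 and alanine aminotransferase gene7119, at rank 761 of 22321 genes. The last exon of its transcripts had an FPKM of 41.7 in control and 0 in fasted muscle.

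Genes with 0 fasted reads and at least 100 control reads numbered 6 in all, a limit chosen after values were seen, and L-serine dehydratase had the most control reads of them. Next came a gene of the acyl-CoA ligase ACSBG2, with 436 control reads, and a further ACSBG2 gene had 105. The rest were glycerophosphodiester phosphodiesterase domain-containing protein 5 (182), homeodomain-interacting protein kinase 1 (140) and separin (122).

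Because L-serine dehydratase is a liver enzyme in mammals, markers of liver and of other tissues are given beside it. Of 48 genes on the liver list, 6 entered, and 27 were listed at 0 in each library. Of the 6, 5 were called lower and 0 higher, where 16.6% and 16.1% of all genes that entered were called lower and higher. A gene near 0 in fasted muscle can enter only through its control level and is then bound to be called lower. The count is thus a description. Liver-list genes present in the control and called lower were homogentisate 1,2-dioxygenase, of tyrosine breakdown (8.77 and 0.0286 RPKM), a serotransferrin gene (gene3340, 2.62 and 0.0847 RPKM), 2 genes of betaine--homocysteine S-methyltransferase 1 (gene14378, 5.90 and 0.0315 RPKM, and gene6063, 1.49 and 0.660 RPKM) and liver-expressed antimicrobial peptide 2 (gene18946). Retinol-binding protein 4-A, at 24.3 and 18.1 RPKM, lay within 2-fold. Among the markers at or near 0, apolipoprotein A-I had 0.126 RPKM in control and 0 in fasted muscle, transthyretin and both hemopexin genes were at 0 in both, and the 4 apolipoprotein B-100 genes were at 0 in both except gene11226 at 0.00381 RPKM in fasted muscle. The list summed to 533 RPKM in control and 24.6 in fasted muscle, of which liver-expressed antimicrobial peptide 2 alone held 486 and 3.89. Genes below the entry mean of 1 RPKM went both ways. Fewer fasted reads were counted for serotransferrin gene3341 (74 and 1 reads) and betaine--homocysteine S-methyltransferase 1 gene14377 (43 and 0 reads). The same held for serotransferrin-1 gene15492 (36 and 6 reads) and complement C3 gene23451 (16 and 2 reads). More fasted reads were counted for an alpha-2-HS-glycoprotein gene (gene6141, 0 and 29 reads). The same held for fibrinogen alpha chain, with 2 and 13 reads for gene22195 and 0 and 5 reads for gene22196. The list thus held genes at 0, genes that, like L-serine dehydratase, were present in the control and lower in the fasted library, and low genes that went either way.

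Markers of blood and slow fibres were lower in the fasted library too, where 16.6% of all genes that entered were called lower and 16.1% higher. Here as well, a gene near 0 in 1 library entered only through the other and was bound to be called. Hemoglobins had 8 of 8 entering genes lower and summed to 568 and 44.7 RPKM, with 1 of 13 genes at 0 in control and 5 in fasted muscle. Slow-fibre genes had 14 of 19 lower and summed to 2363 and 473 RPKM, with 2 of 22 genes at 0 in control and 3 in fasted muscle. Of 7 genes on the fat-cell list only 2 entered, and the list summed to 66.2 and 2.43 RPKM. Of the 2, the lipid-droplet protein CIDE-3 was lower at 66.1 and 0.203 RPKM. Leptin was higher at 0 and 2.17 RPKM, on 0 and 28 reads. It is a fat-cell product in mammals, and whether it marks fat cells in this fish was not tested. Adiponectin was at 0 in both. Of 28 skeletal muscle genes 24 entered, with 1 higher and 10 lower. The list summed to 215401 and 186928 RPKM, with 3 genes at 0 in each library. As deposited, its abundant genes went both ways. Alpha skeletal actin stood at 115733 and 55199 RPKM and creatine kinase M-type gene15804 at 40849 and 31175.5 RPKM. Creatine kinase M-type gene19473 stood at 18092 and 28477 RPKM, and the fast myosin heavy chain gene23811, annotated at only 498 bases, at 13876 and 34088 RPKM. The part of these cell types in the values of the 10 genes was not tested.

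**Figure D3:**
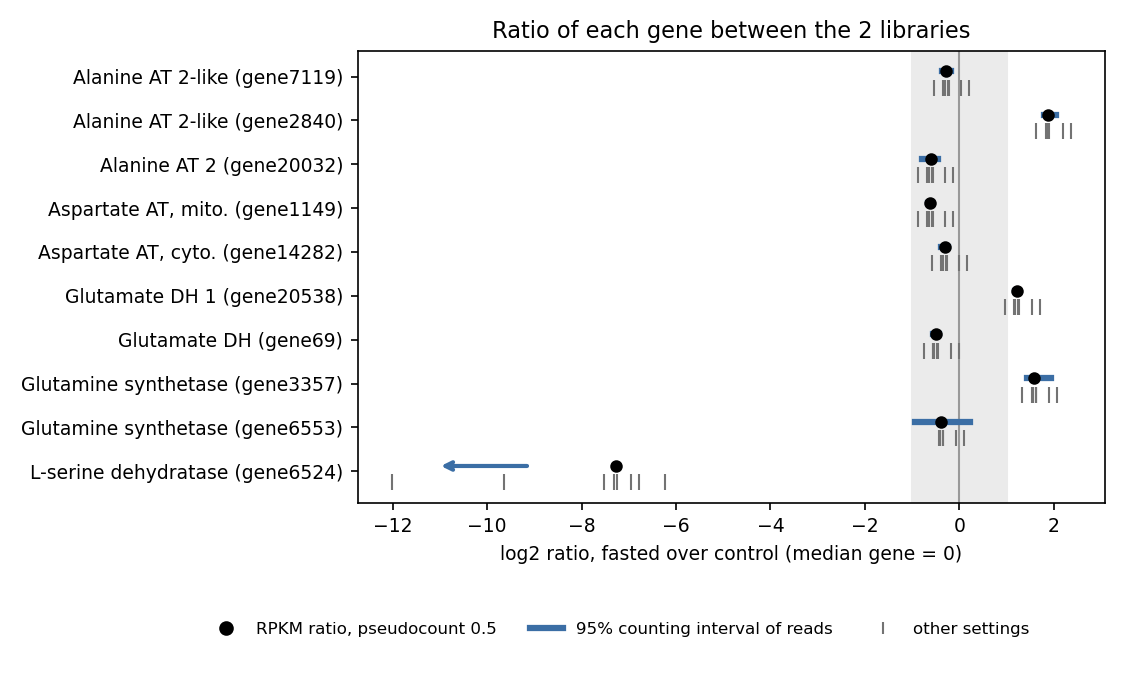
Log2 ratio of fasted over control for each gene, with the median gene at 0 and the grey band marking 2-fold in either direction. Black points are the RPKM ratio with a pseudocount of 0.5 RPKM, blue bars the 95% counting interval of the read ratio (an arrow where only an upper limit exists), and grey ticks the ratio under the other settings tried. The 3 higher genes lie between 1.22 and 1.88, 6 genes lie inside the band and L-serine dehydratase lies at -7.27.

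The authors' deposited table was set beside these values. The authors' deposited table called 3 of the 10 genes higher and 1 lower, and they were the genes named above, where the authors' deposited table called 30.3% of 16883 genes higher and 14.5% lower. Its p-values rest on a single library in each group, by a method the sources used here do not give.

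Genes with a ratio most like that of alanine aminotransferase gene2840 were looked for among 1179 named genes whose level in their higher library lay within 2-fold of its own. By the log2 read ratio over these 2 libraries, the nearest 4 were the autophagy protease ATG4B (1.93), ankyrin repeat and SOCS box protein 5 (1.92), glutamine--tRNA ligase (1.91) and the transcription factor BHLHE40, named class E basic helix-loop-helix protein 40 (1.93). For L-serine dehydratase the ratio was -9.37, with a floor of 3 reads in place of any smaller count. By this measure the nearest of 1373 genes were CIDE-3 and the triglyceride-forming enzyme diacylglycerol O-acyltransferase 2. CIDE-3 had 1348 control and 4 fasted reads (-8.83). The acyltransferase had 1593 and 1, and its -9.49 also rests on the floor, so the ratio of its own reads is lower. Lathosterol oxidase (-6.69) and neutral cholesterol ester hydrolase 1 (-6.26) followed at a distance. A likeness over 2 libraries is a likeness of 1 ratio and no more.

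Enzymes around the 10 genes were read from 5 lists of protein names. The shares over all genes that entered were 16.1% called higher and 16.6% lower, and no list was tested against them. Other aminotransferases were lower or within 2-fold: of 17 genes 10 entered, with 0 higher, 3 lower and a median of -0.82. The 3 were ornithine aminotransferase, which links ornithine to glutamate semialdehyde (gene106, 25.6 and 11.9 RPKM, -1.56), the isomerizing glutamine--fructose-6-phosphate aminotransferase 2 of hexosamine synthesis (gene7452, -1.77) and 1 of 3 genes of 4-aminobutyrate aminotransferase (gene21817, -1.01). The last lies at the cut, with a counting interval of -1.36 to -0.72. Those 3 genes are 633, 321 and 740 bases long, and whether they are parts of 1 gene was not tested. Both genes of kynurenine--oxoglutarate transaminase 3 lay within 2-fold at 0.41 and -0.12, and so did kynurenine/alpha-aminoadipate aminotransferase at -0.71. Tyrosine aminotransferase, in mammals an enzyme of the liver, was listed at 0 in both libraries, as were both genes of alanine--glyoxylate aminotransferase 2 and of serine--pyruvate aminotransferase.

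Genes that release, capture or dispose of ammonia went both ways, with 5 of 17 entering genes higher and 5 lower. Over all genes 16.1% were higher and 16.6% lower, and the list had a median of 0.36. Muscle AMP deaminase 1, which frees ammonia from AMP in the purine nucleotide cycle, had 2962 RPKM in control and 8984 RPKM in fasted muscle (gene4505, 1.12). It is the most abundant gene on the list and was named for that after its values were seen. AMP deaminase 3 stood at 3.0 and 33.2 RPKM (gene9669, 2.78), while an AMP deaminase 2 gene was lower at 2.48 and 0.845 RPKM (gene12475, -1.63). Of 4 kidney-type glutaminase genes, which free ammonia from glutamine, 1 stood at 1.89 and 21.2 RPKM (gene4632, 2.70). Another of these 4 was lower, at 3.81 and 1.73 RPKM (gene5678, -1.43), and the remaining ones, gene11819 and gene6814, lay within 2-fold at 0.23 and 0.31. Argininosuccinate lyase had a ratio of 1.31 and ornithine carbamoyltransferase of -1.53 (gene15089). Adenylosuccinate synthetase isozyme 1 C, the abundant synthetase gene, was lower at 1187 and 668 RPKM (gene9373, -1.31). The isozyme 2 genes, both far less abundant, went the other way. Gene1513 stood at 6.44 and 20.3 RPKM (1.10), and gene10815 at 4.69 and 12.6 RPKM (0.85, within 2-fold). Adenylosuccinate lyase stood at 98.3 and 101 RPKM (gene7628, -0.45, and 0.03 as deposited). Ammonium transporter Rh type A stood at 5.62 and 1.11 RPKM (gene16538, -2.41), and which cell type its reads came from was not tested.

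On the list for the malate-aspartate shuttle, in which aspartate aminotransferase takes part, 6 of 9 entering genes were lower and 0 higher. Over all genes 16.6% were lower and 16.1% higher, and the list had a median of -1.49. The list counts include mitochondrial glutamate carrier 1, which is not itself a part of the shuttle. Of the cytoplasmic malate dehydrogenase copies, gene3583 had 110 and 22.3 RPKM (-2.76) and gene15959 had 86.6 and 42.8 RPKM (-1.49). The aspartate/glutamate carrier Aralar1 stood at 72.7 and 28.1 RPKM (gene12162, -1.84). Of the glutamate carrier 1 genes, gene2368 stood at 16.6 and 2.35 RPKM (-3.07) and gene3434 at 10.8 and 5.01 RPKM (-1.52). Both are among the 6 lower genes, while gene1572 had a ratio of 0.02. Mitochondrial malate dehydrogenase, which also serves the citrate cycle, stood at 341 and 634 RPKM (gene10706, 0.41) and the 2-oxoglutarate/malate carrier at 68.4 and 158 RPKM (gene21400, 0.72).

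Around serine, 2 of 13 entering genes were higher and 4 lower, where 16.1% and 16.6% of all genes were. The median was 0.08, and its sign depended on the processing. Cytosolic serine hydroxymethyltransferase, which makes glycine from serine, stood at 3.59 and 15.4 RPKM (gene16180, 1.48), glycine N-methyltransferase had a ratio of 1.47 and a glycine cleavage system H protein gene 0.58. Phosphoserine phosphatase, the last step of serine synthesis, stood at 10.7 and 4.54 RPKM (gene1971, -1.63). L-threonine 3-dehydrogenase had a ratio of -1.40 (gene7198) and betaine--homocysteine S-methyltransferase 1, also on the liver list, of -4.07 (gene14378). D-3-phosphoglycerate dehydrogenase, the first step of serine synthesis, had 2 reads in each library.

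Enzymes that join glutamate with proline and ornithine had 2 of 9 entering genes higher and 2 lower, where 16.1% and 16.6% of all genes were. The median was 0.57. Proline dehydrogenase 1, the first step of proline breakdown towards glutamate, had 1 gene at 1.57 and 14.0 RPKM (gene925, 2.33) and another within 2-fold (gene8345, 0.57). The dehydrogenase of the following step stood at 26.0 and 57.9 RPKM (gene21423, 0.66). Delta-1-pyrroline-5-carboxylate synthase, which works in the opposite direction, stood at 4.54 and 17.4 RPKM (gene1006, 1.35). Pyrroline-5-carboxylate reductase 1, which completes proline synthesis, stood at 11.8 and 3.68 RPKM (gene14496, -2.04). Reductases 2 and 3, both less abundant than reductase 1 in control muscle, lay within 2-fold at -0.07 (gene3395) and 0.81 (gene23053, 1.29 as deposited). By reads, without the pseudocount, gene23053 had a centred log2 ratio of 1.22 on 29 and 91 reads, past 2-fold. Ornithine aminotransferase is on this list as well.

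**Figure D4:**
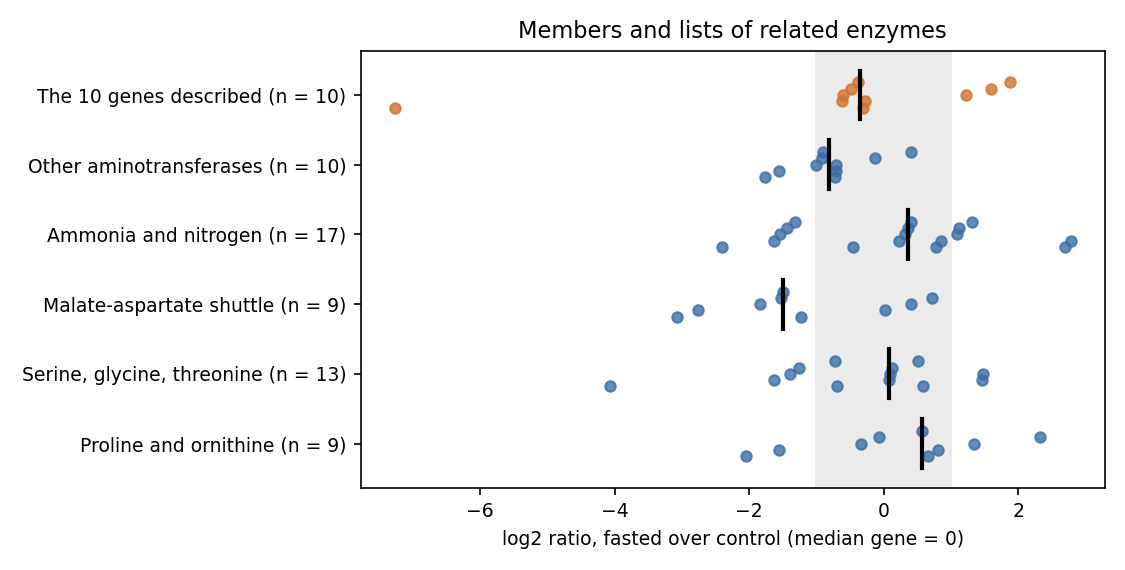
Log2 ratio of fasted over control RPKM, with the median gene at 0, for the 10 genes (orange) and for entering genes of the 5 lists (blue); each point is a gene, black bars are medians and the grey band marks 2-fold. The malate-aspartate shuttle list, which includes mitochondrial glutamate carrier 1, has the lowest median at -1.49, and L-serine dehydratase at -7.27 lies below every listed gene.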

How the data were processed

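Muscle RNA of 1 control and 1 fasted library was made into TruSeq libraries, per the labels' protocols. HTSeq, SAMtools 0.1.19, TopHat and TopHat2 2.0.12 are the tools in the submitters' processing notes, which give them no role. The sources used here do not give the genome build, annotation release or use of strand. None of the 10 genes overlaps another annotated gene, but genes of 1 name may be near-identical copies that share reads, so the value of a single copy is uncertain.

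The authors deposited RPKM per gene, a comparison table with RPM, a fold ratio, its log2 and p-values, and splicing events with an FPKM each, taken to genes by scaffold, position and strand. Whole reads were recovered from the deposited RPM, 100% of them whole within 0.1 read, leaving aside values at the zero level. RPM divided by RPKM gave whole gene lengths, a multiple of 3 for 92.6% of genes.

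Ratios were log2 of fasted over control RPKM plus 0.5, which understates the change of low genes, centred on the median of genes whose mean reached 1 RPKM. A count test on the recovered reads was not run, since 1 library per group gives no dispersion; reads carry 95% exact intervals and a floor of 3 reads. Steps were tested on simulated reads (Python 3.11.15, SciPy 1.17.1). Of each list, the 3 highest and 3 lowest ratios at 5 RPKM or more in the higher library were to be named; of the marker lists only defining or largest members are written out. Further genes of the lists, such as other copies of a named enzyme and genes at or near 0, were named after values were seen. RefSeq symbols (L_crocea_2.0) were looked up by locus identifier. The genes and lists were chosen with earlier results of these data known, and entries that only contain a listed word, such as antizymes, were removed by name after values were seen.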

Additional observations from a re-analysis of the deposited data

How the results depend on the processing

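The count of higher genes among the 10 was 3 under all settings except a mean of at least 5 RPKM, where it was 2 because glutamate dehydrogenase gene20538 lay at 0.96. The count of lower genes was 1 throughout, except 3 at a 1.5-fold size, which added mitochondrial aspartate aminotransferase and alanine aminotransferase 2. At that size 3144 of the 11417 genes that entered were higher and 3160 lower. Over all settings gene2840 ranged from 1.62 to 2.36, gene3357 from 1.33 to 2.07 and gene20538 from 0.96 to 1.71, and L-serine dehydratase from -12.02 to -6.23, since a ratio to 0 reads rests on the pseudocount. The signs of gene14282, gene7119 and gene6553 depended on the scaling. The larger moves of list counts were as follows. With RPKM as deposited, where 29.7% of all genes were higher and 8.88% lower, ammonia had 7 higher and 3 lower, and serine 3 higher and 2 lower. Other aminotransferases then had 2 lower, the shuttle 1 higher and 5 lower, and proline 5 higher. At 5 RPKM, where 1055 genes in all were higher and 1156 lower, ammonia had 2 higher and 1 lower, and serine 2 lower. At 1.5-fold, other aminotransferases had 8 lower, ammonia 7 higher, serine 6 lower, the shuttle 1 higher and proline 4 higher. With no filter, where 2936 genes in all were higher and 1695 lower, the shuttle had 1 higher, and ammonia had 7 higher and 6 lower. The median of the serine list was -0.55 at 5 RPKM, -0.31 with no filter and 0.57 as deposited. That of the ammonia list was -0.10 with no filter. No called ratio of the 10 genes changed sign. With no filter, higher genes were 63.4% of all genes called. No paired analysis was possible because each group has 1 library. Depth limits the ratio of L-serine dehydratase, which has no lower limit at 0 fasted reads, and that of gene6553, with 51 and 54 reads.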

Other observations

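The places of the genes were read from the deposited positions. Both glutamine synthetase genes lie before a gene named pre-B-cell leukemia transcription factor 1 on the opposite strand. Gene3358 begins 31978 bases after gene3357 and had 5.59 RPKM in control and 6.16 in fasted muscle. Gene6554 begins 68139 bases after gene6553 and stood at 2.89 and 4.76 RPKM. Their centred log2 ratios, -0.35 and 0.15, lay within 2-fold.

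Next to alanine aminotransferase gene2840, the G protein subunit gamma-5 gene gene2841, on the same strand 4397 bases away, stood at 25.4 and 93.9 RPKM, a centred log2 ratio of 1.38. On its other side gene2839, on the same strand, was at 0 in both libraries. The neighbours of glutamate dehydrogenase gene20538, gene20537 and gene20539, had centred log2 ratios of -0.52 and 0.99. Gene20537 lay within 2-fold. Gene20539, at 2.07 and 6.62 RPKM on 126 and 389 reads, lay just inside that size, and the pseudocount of 0.5 RPKM lowers its ratio. Beside L-serine dehydratase, the HECTD4 gene gene6523, 3708 bases away, stood at 1.61 and 1.76 RPKM (-0.38), and homeodomain-interacting protein kinase 2, gene6525, was at 0 in both libraries.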
